A study of Mus musculus with 12 samples.

Results

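Islets that had lost both working copies of Wfs1 were set against all islets that still had at least one. The 4 Wfs1KO animals formed one side of the comparison and the 8 animals with a working copy, 4 wild-type (WT) and 4 heterozygous (Wfs1HZ), formed the other and are called carriers here. All 12 animals of the study were used. They were male F2 hybrids of 129S6/SvEvTac and C57BL/6 mice aged 5 to 6 months, and the mutant allele, Wfs1tm1Koks, has most of exon 8 replaced by a LacZ cassette, so that a truncated fusion of WFS1 and LacZ can still be made from it in Wfs1HZ and Wfs1KO animals. The allele is in the germ line and so in all tissues, not only in beta cells. Islets were handpicked after collagenase digestion into high glucose medium, and each animal gave 1 RNA library. The paper describes an overnight incubation ahead of the insulin secretion assay and does not say whether the islets used for RNA had it. Of the 24078 entries in the table of RPKM (reads per kilobase of transcript, scaled to the reads of the library), those averaging 1 RPKM or more across the 12 animals were tested, 13357 in number. Differences are on the log2(RPKM + 0.1) scale, as Wfs1KO minus carriers unless stated, and understate the change of low genes.

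Wfs1 encodes wolframin, a membrane protein of the endoplasmic reticulum (ER), the compartment in which proinsulin is folded. Loss of both copies causes Wolfram syndrome in people, with diabetes of young onset and loss of neurons, whereas most people with a single defective copy do not have the syndrome. When the ER folds more protein than it can handle, sensors such as ATF6, IRE1 and PERK raise chaperones, degradation factors and, through PERK, the genes of the integrated stress response. A change that needs the loss of both copies leaves the heterozygote at the wild-type level, whereas a change that follows gene dose puts the heterozygote midway.

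The libraries differed in depth and makeup. Estimated from the steps between the RPKM of short RNA genes, the reads behind the values numbered from 2189000 (Wfs1HZ replicate 2) to 9557000 (Wfs1KO replicate 1), so that 3 reads on a transcript of 2 kb stood for 0.157 to 0.685 RPKM. Wfs1HZ replicate 2 had the highest median over all entries (3.37 RPKM) and Wfs1HZ replicate 4 the lowest (0.75 RPKM). The labelled tissue was borne out by its defining genes in every library, since the summed RPKM of the beta cell markers ran from 12565 to 179870. Digestive enzyme genes of the acinar cells were present in every library as well, at summed values from 8540 (Wfs1KO replicate 4) to 307250 RPKM (Wfs1HZ replicate 4). The acinar sum was above the beta cell sum in WT replicates 2 and 3, Wfs1HZ replicates 1 and 4 and Wfs1KO replicate 3. In the other libraries it was below. Wfs1KO replicate 4 also had the highest sum of alpha cell markers, 221080 against 50981 to 77529 RPKM in the other Wfs1KO animals. In bulk tissue of this kind, fewer cells of a type and less RNA per cell cannot be told apart.

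Wfs1 itself was lowest in Wfs1KO islets and did not follow the recessive pattern. The 4 Wfs1KO animals had 5.08, 6.61, 3.46 and 2.45 RPKM. The 4 Wfs1HZ animals had 15.03, 4.69, 16.43 and 8.16 RPKM, and the 4 WT animals 33.94, 27.37, 24.85 and 28.43 RPKM. The Wfs1KO values were below every WT value but overlapped with Wfs1HZ replicate 2. The heterozygote lay 0.55 of the way from WT to Wfs1KO on the log2 scale, and its difference from WT was -1.52 with a 95% interval from -2.32 to -0.72. Against the 8 carriers the difference was -2.0 (standard error 0.45, adjusted p = 0.358 by limma), and without Wfs1HZ replicate 2 it was -2.26 (adjusted p = 0.0299). Exons before the replaced part are still transcribed in the mutant, and the RPKM is given for the gene (chromosome 5, 36966104 to 36989205, minus strand, mm10, GENCODE M21) and not by exon, so the level left in Wfs1KO islets cannot be read as intact message.

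Against the carriers, 3 transcripts passed an FDR of 0.05 (0.0225% of those tested): Trpm5 and Gad1 fell and Cpb2 rose in Wfs1KO islets. At an FDR of 0.2 there were 7 (0.0524%), with Spock1 and Snord52 lower and Fkbp11 and Serpina7 higher. An unadjusted p under 0.05 was reached by 349 transcripts that were higher in Wfs1KO (2.61%) and by 153 that were lower (1.15%). Together these were 502, fewer than a p under 0.05 gives by chance among as many transcripts when none differs. Higher transcripts made up 69.5% of the 502. The share was 46.9% with median-of-ratios scaling and 47.8% with quantile normalization, which moved the median over all transcripts from 0.06 to 0.01. These numbers rested on single animals. With Wfs1KO replicate 1 or 2 left out 0 transcripts had an FDR under 0.05 by limma, although 119 higher and 144 lower ones had an unadjusted p under 0.05 without replicate 1. With Wfs1KO replicate 4 left out 19 transcripts had an FDR under 0.05, 127 an FDR under 0.2, and 577 were higher and 324 lower at an unadjusted p under 0.05. Without Wfs1HZ replicate 2 there were 5 at an FDR of 0.05 and 567 higher, without Wfs1HZ replicate 4 338 lower, and without Wfs1KO replicate 3 101 lower. The 7 at an FDR of 0.2 became 3 without Wfs1KO replicate 1 or 2 and 4 without Wfs1KO replicate 3, WT replicate 2, WT replicate 4 or Wfs1HZ replicate 3.

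Trpm5, a cation channel that opens in response to calcium and depolarizes beta cells, was 5.84-fold lower in Wfs1KO islets than in the carriers. The 4 Wfs1KO animals had 0.76, 0.55, 0.73 and 0.83 RPKM. WT animals had 4.25, 2.57, 5.85 and 4.19 RPKM, and Wfs1HZ animals had 4.42, 3.83, 11.12 and 4.16 RPKM. The lowest carrier thus stood well above the highest Wfs1KO animal. The difference was -2.55 (standard error 0.35, adjusted p = 0.0138 by limma), and an exact permutation test, two-sided, gave 0.00404, the smallest p that 4 against 8 animals allow. Every transcript without overlap between Wfs1KO and carriers has this p, which is not adjusted for the number of transcripts tested. Here and below it restates the lack of overlap and is not further support. Trpm5 kept an FDR under 0.05 in 23 of 26 other settings, and its adjusted p was 0.0792 without Wfs1KO replicate 1, 0.125 without replicate 2 and 0.411 with quantile normalization. The mean of the heterozygote was not below that of WT, with a difference of 0.38 and a 95% interval from -0.48 to 1.24. Measured from the midpoint of WT and Wfs1KO, the departure of Wfs1HZ had an unadjusted p of 0.000416 and an adjusted p of 1.00 by limma. The departure is computed from the same Wfs1KO values by which Trpm5 was picked, so it is not independent support for a recessive shape. Trpm5 lies on chromosome 7 from 143069153 to 143094642 on the minus strand.

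Gad1 encodes glutamate decarboxylase 1, which makes GABA, a transmitter that beta cells release. The 4 Wfs1KO animals had 0.93, 0.80, 1.53 and 0.37 RPKM, which correspond to about 9.28 to 93.9 reads. The carriers had between 2.53 and 10.4 RPKM with a median of 5.9, and no carrier overlapped with Wfs1KO. Gad1 was 6.21-fold lower (difference -2.64, standard error 0.41, adjusted p = 0.0232 by limma, p = 0.00404 by the same exact permutation test). Its call was the least stable of the 3, with an FDR under 0.05 in 13 of 26 other settings and adjusted p of 0.0987 and 0.15 without Wfs1KO replicates 1 and 2. WT and Wfs1HZ were alike in mean, 6.36 ± 3.01 and 6.02 ± 3.16 RPKM (SD, n = 4 each), and the interval of their difference ran from -1.15 to 0.91. The gene lies on chromosome 2 from 70553072 to 70602014.

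Cpb2 encodes carboxypeptidase B2, a zymogen known from plasma, where its active form slows the lysis of clots. Wfs1KO animals had 9.52, 11.88, 9.90 and 7.19 RPKM. WT animals had 2.78, 1.81, 2.32 and 3.81 RPKM, and Wfs1HZ animals 2.17, 1.23, 2.39 and 2.29 RPKM. All Wfs1KO animals were above all carriers, by 4.07-fold (difference 2.03, standard error 0.29, adjusted p = 0.0138 by limma, p = 0.00404 by exact permutation). The carrier values stand for about 4.39 to 39.6 reads. The heterozygote lay slightly on the far side of WT, with a difference from WT of -0.38 and an interval from -1.09 to 0.33. Cpb2 kept an FDR under 0.05 in 21 of 26 other settings and lost it without Wfs1KO replicate 1 (adjusted p = 0.0987), 2 (0.15) or 3 (0.0871) and under both scalings (0.22 and 0.644). It lies on chromosome 14 from 75242287 to 75283555.

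Of the transcripts that passed only an FDR of 0.2, Spock1, Fkbp11 and Serpina7 had no overlap between Wfs1KO and carriers either. Spock1, the proteoglycan testican-1 of the extracellular matrix, had 4.45, 5.54, 4.52 and 7.36 RPKM in Wfs1KO islets and 8.81 to 22.24 RPKM in the carriers with a median of 15.3. It was 2.85-fold lower (standard error 0.26 on the log2 scale, adjusted p = 0.0544 by limma). Fkbp11, a prolyl isomerase of the ER that helps secretory proteins fold, had 53.91, 43.02, 26.60 and 24.31 RPKM in Wfs1KO islets against 8.03 to 20.99 RPKM in the carriers with a median of 13.4. It was 2.67-fold higher (standard error 0.26, adjusted p = 0.109), and without Wfs1KO replicate 1 its adjusted p was 0.639. Serpina7, thyroxine-binding globulin, had 19.10, 11.57, 9.19 and 7.54 RPKM in Wfs1KO islets against 0.58 to 6.72 RPKM in the carriers with a median of 2.05. These are 5.70-fold higher values (standard error 0.49, adjusted p = 0.148). Snord52, a small nucleolar RNA gene of 66 nt, was listed at 0 in all 4 Wfs1KO animals and in Wfs1HZ replicate 4, and no carrier had more than about 4.5 reads, so no fold is given.

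**Figure D1:**
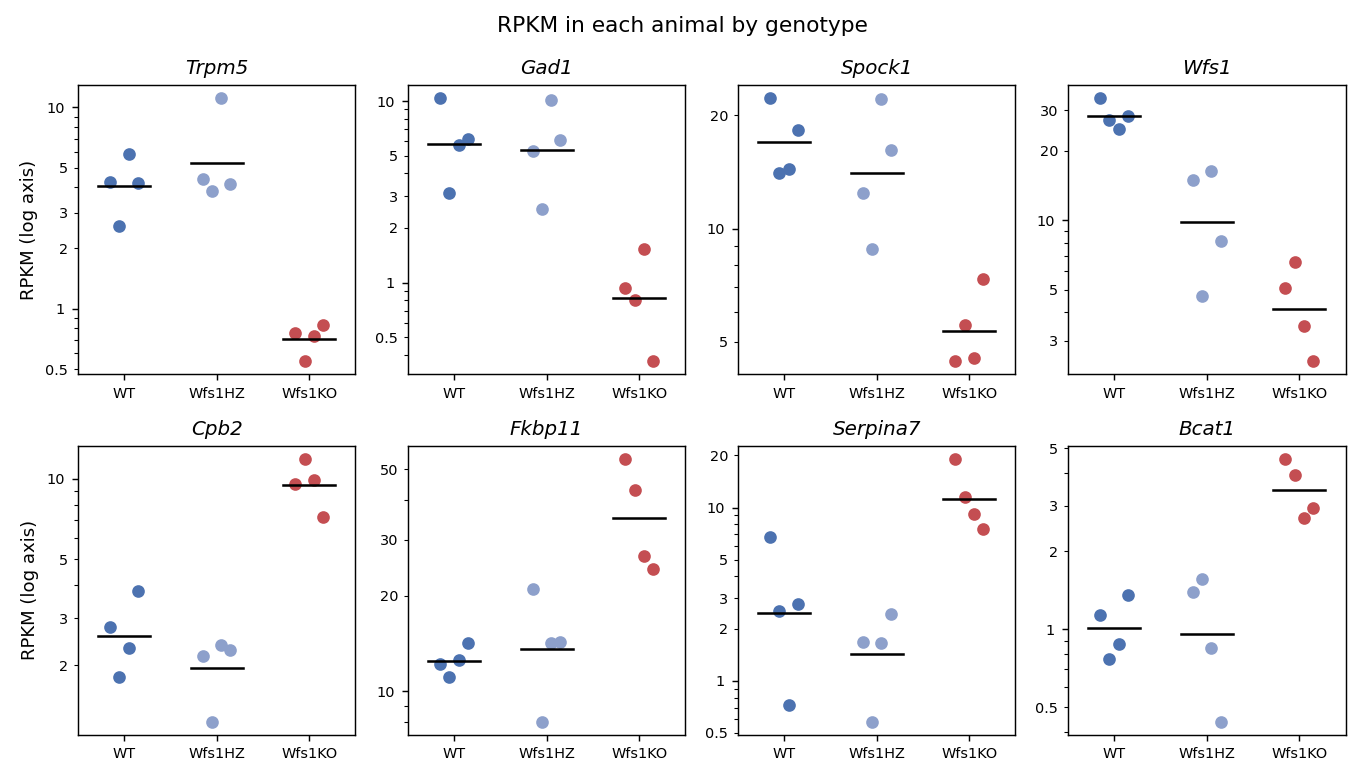
RPKM on a log axis in each of the 12 animals by genotype, for Trpm5, Gad1, Spock1 and Wfs1 (upper row) and Cpb2, Fkbp11, Serpina7 and Bcat1 (lower row). Each point is 1 animal and each bar is the group mean of log2(RPKM + 0.1) turned back to RPKM. The 4 Wfs1KO animals lie outside the range of all 8 carriers in every panel but that of Wfs1, where Wfs1HZ has a mean of 11.1 RPKM against 28.6 in WT and 4.4 in Wfs1KO islets.

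In 27 transcripts all 4 Wfs1KO values lay above all 8 carriers (0.202%) and in 24 they lay below (0.18%). For values unrelated to genotype each outcome has a chance of 1 in 495, the number of ways to draw 4 of 12 animals. Both shares are close to that chance, so the number of such transcripts is no evidence of an effect of genotype. On the scale from WT (0) to Wfs1KO (1) the median position of Wfs1HZ was -0.04, with 46 of the 51 under 0.25, 5 between 0.25 and 0.75 and 0 beyond 0.75. In 27 the heterozygote differed from WT in the direction away from Wfs1KO. The 5 between were Fam163a, Sh3kbp1, Cnnm1, Kdelr3 and 4933404O12Rik. Lying outside all carriers in itself favours transcripts in which WT and Wfs1HZ are alike, so this count describes the 51 and is not a test. The median size of the difference was 0.93 between Wfs1KO and carriers and 0.23 between Wfs1HZ and WT. Over all transcripts tested, Wfs1HZ differed from WT at an unadjusted p under 0.05 in 377 (2.82%) and departed from the midpoint of WT and Wfs1KO in 418 (3.13%), and 0 passed an FDR of 0.05 in either test by limma. Both counts are below the number that this p gives by chance when no transcript differs. Of these counts, the first was 194 without WT replicate 1 and 759 without Wfs1HZ replicate 4. The second was 249 without WT replicate 1, 269 and 266 without Wfs1KO replicates 1 and 2, and 696 and 682 without Wfs1HZ replicates 2 and 4. Among the 51 the departure reached an unadjusted p under 0.05 in 18 and the difference between Wfs1HZ and WT in 1, Gnat2. The departure is computed from the same Wfs1KO values by which the 51 were chosen. These 2 counts therefore describe the 51 as well and cannot be set against the shares over all transcripts. Gnat2, the transducin alpha subunit of cones, was lower in Wfs1HZ than in WT by -1.16 while it was higher in Wfs1KO than in the carriers by 1.28.

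**Figure D2:**
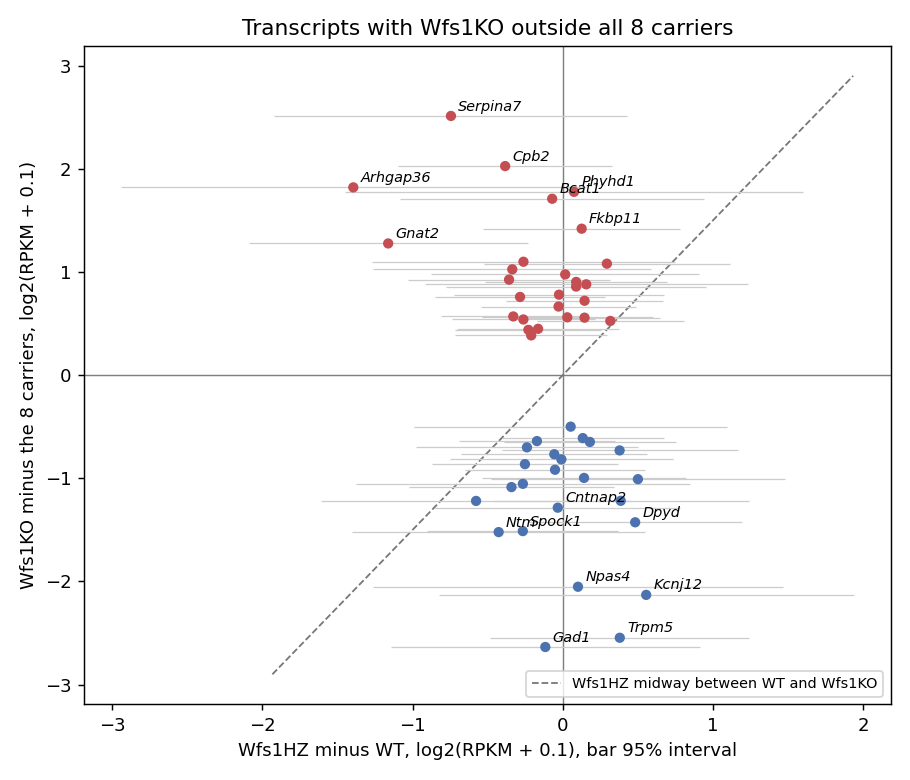
Each point is 1 of the 51 transcripts in which all 4 Wfs1KO values lie above (red) or below (blue) all 8 carriers. The vertical axis gives Wfs1KO minus carriers and the horizontal axis Wfs1HZ minus WT, both in log2(RPKM + 0.1), with the 95% interval of the latter as a grey bar. The dashed line is where a heterozygote midway between WT and Wfs1KO would fall; 46 of the 51 have a Wfs1HZ position under 0.25, and the names mark the transcripts with the largest differences.

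Of the 24 transcripts below all carriers, those for neural and excitable cells are given first, an order chosen after their values were seen. Cntnap2, a neurexin-like adhesion protein of axons, had 2.16, 2.26, 1.73 and 1.27 RPKM in Wfs1KO islets and 2.47 to 7.82 RPKM in the carriers (difference -1.29, standard error 0.32). Ntm, the neuronal adhesion protein neurotrimin, had 0.84 to 1.61 RPKM against 1.97 to 7.36 RPKM (difference -1.52). Kcnj12, an inwardly rectifying potassium channel, had 0.07 to 0.55 RPKM against 0.72 to 2.41 RPKM (difference -2.13). Npas4, a transcription factor that neurons and beta cells switch on upon depolarization, had 0.49 to 1.23 RPKM against 1.52 to 13.39 RPKM (difference -2.05). Kcnj12 rested on about 1.18 to 12.2 reads in Wfs1KO islets and Npas4 on about 10.0 to 48.6. Dpyd, which breaks down pyrimidines, had 2.18, 1.68, 1.81 and 1.36 RPKM against 3.39 to 9.48 RPKM (difference -1.43, adjusted p = 0.265 by limma). Igfbp5, a binding protein of insulin-like growth factors, had 12.24 to 19.8 RPKM against 22.16 to 49.78 RPKM (difference -0.92). Fam163a had 1.9 to 4.41 RPKM against 4.42 to 8.42 RPKM and a heterozygote 0.27 of the way to Wfs1KO. Among the others, Rfc3, a loader of the DNA clamp, had a difference of -0.997, the myosin gene Myh14 -1.22, Sh3kbp1 -0.86 and Phkb, a subunit of the kinase that drives glycogen breakdown, -0.64. The adjusted p of Cntnap2, Ntm, Kcnj12, Npas4 and Igfbp5 was 0.618 each.

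Secretory pathway genes were among the 27 transcripts above all carriers. Ssr3, a subunit of the translocon-associated complex at the ER membrane, had 191.13, 200.54, 118.19 and 108.01 RPKM in Wfs1KO islets and 54.39 to 103.95 RPKM in the carriers (difference 0.76, standard error 0.23). Creb3l1, an ER-anchored transcription factor of secretory cells, had 47.1, 44.92, 25.02 and 25.17 RPKM against 12.33 to 24.47 RPKM (difference 0.90, standard error 0.24). Sdf2l1, which works with the chaperone BiP, had 99.46, 86.0, 54.38 and 46.83 RPKM against 7.76 to 46.55 RPKM (difference 1.10, standard error 0.40). In all of these, Wfs1KO replicates 1 and 2 were far from the carriers and replicates 3 and 4 just outside them. Kdelr3, a receptor that returns ER proteins from the Golgi, had 10.64 to 14.09 RPKM against 6.21 to 10.36 RPKM, and Ncln, a protein of the ER membrane, had 5.7 to 9.16 RPKM against 4.23 to 5.65 RPKM; both were named after their values were seen. Bcat1, the cytosolic transaminase of branched-chain amino acids, had 4.55, 3.94, 2.70 and 2.94 RPKM against 0.44 to 1.56 RPKM (difference 1.71, standard error 0.40, adjusted p = 0.493 by limma). Capg, which caps actin filaments, had 7.53 to 12.01 RPKM against 1.12 to 7.29 RPKM (difference 1.02). Smpdl3a, Atrip, Aimp2, Snrpg, Phyhd1, Rrp36, Cd47, Agpat1, Rad51c, Atg13 and Arhgap36 lay above all carriers as well, with differences from 0.54 (Atg13, which starts autophagy) to 1.82 (Arhgap36). None of Ssr3, Creb3l1, Sdf2l1, Kdelr3, Ncln, Bcat1 and Capg passed an FDR of 0.2.

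Genes of ER folding, degradation and the unfolded protein response mostly had higher values in Wfs1KO islets than in the carriers. Of 39 list members tested 17 were higher at an unadjusted p under 0.05 and 1 was lower, Wfs1 itself (2.61% and 1.15% over all transcripts). A positive difference was found in 34 of the 39, against 7960 of the 13357 transcripts tested. The median of the list was 0.46 against 0.06 over all transcripts tested. Between Wfs1HZ and WT the median was -0.24, against -0.06 over all transcripts. This lower median went with Wfs1HZ replicates 2 and 4: the centred list mean without Wfs1 was 0.062, -0.594, 0.043 and -0.482 in Wfs1HZ replicates 1 to 4 and 0.109, -0.337, -0.024 and -0.055 in WT. No member had an FDR under 0.05, and 1, Fkbp11, had an FDR under 0.2. Several ER genes that act on misfolded proteins are activated through a promoter element of ATF6 and XBP1, the ER stress response element, read as CCAAT, 9 bases of any kind and CCACG. In RefSeq promoter windows (250 bases before to 50 after the gene start, GRCm38.p6, either strand) it occurred in 14 of 10314 tested genes with a window (0.136%), and 9 of 31 list members with a window (29.0%). Among the members that were higher it was found in 4 of 14 (28.6%) and among the others in 5 of 17 (29.4%), which are like shares. The stretches around it in these 4 genes are shown because they are the higher members that carry it, 5′ to 3′ along the gene's strand, with CCAAT and CCACG or their complements in capitals. They are those of Derl3 (chr10:75893182-75893320, plus strand, element 156 to 138 bases before the start), Dnajc3 (chr14:118937767-118937905, plus strand, 105 to 87 bases before), Pdia6 (chr12:17266431-17266569, plus strand, 98 to 80 bases before) and Syvn1 (chr19:6046472-6046610, plus strand, 44 to 26 bases before).
Derl3: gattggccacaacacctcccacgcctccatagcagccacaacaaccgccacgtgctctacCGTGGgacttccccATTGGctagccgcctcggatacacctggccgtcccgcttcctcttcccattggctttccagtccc
Dnajc3: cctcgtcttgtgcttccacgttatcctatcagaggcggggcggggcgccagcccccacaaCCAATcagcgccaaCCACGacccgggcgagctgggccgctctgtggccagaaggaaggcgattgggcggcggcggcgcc
Pdia6: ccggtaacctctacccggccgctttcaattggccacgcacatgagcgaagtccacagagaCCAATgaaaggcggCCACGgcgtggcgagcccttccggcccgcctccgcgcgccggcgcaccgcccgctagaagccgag
Syvn1: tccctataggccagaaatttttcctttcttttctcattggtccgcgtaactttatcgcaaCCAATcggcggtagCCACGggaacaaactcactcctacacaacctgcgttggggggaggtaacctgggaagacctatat

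Factors of degradation and of folding were both among the higher members. Derl3, a channel protein of ER-associated degradation, had 26.81, 28.96, 25.8 and 17.88 RPKM in Wfs1KO islets against 4.41 to 18.74 RPKM in the carriers with a median of 9.53 (difference 1.44, standard error 0.34, adjusted p = 0.527 by limma). Edem2, which trims the sugars of misfolded glycoproteins, had 30.99, 24.13, 16.26 and 13.97 RPKM against 6.52 to 14.29 RPKM (difference 0.96). Sel1l and Syvn1, the partner and the ubiquitin ligase of the same machinery, had differences of 0.64 and 0.50, and Herpud1 one of 0.56. Of the folding enzymes, Pdia6 had 182.52, 171.96, 114.39 and 111.54 RPKM against 60.91 to 113.96 RPKM (difference 0.77), and the co-chaperone Dnajc3 had 149.59, 158.1, 99.7 and 88.08 RPKM against 53.85 to 107.83 RPKM (difference 0.54). For Derl3 and Edem2 replicate 4 alone came within the range of the carriers, and for Dnajc3 replicates 3 and 4 did. Manf, a secreted protein of the stressed ER, had a difference of 0.73, and Sec61b, a subunit of the translocation channel, one of 0.92. Hspa5, the chaperone BiP, had 1181.6, 1662.0, 1051.0 and 1024.5 RPKM against 523.48 to 1247.7 RPKM, and its difference of 0.58 did not pass (unadjusted p = 0.081). The sensors and factors at the head of the response did not pass the test: the difference was 0.30 for Atf6, -0.11 for Ern1, -0.08 for Eif2ak3 and -0.13 for Xbp1, with an unadjusted p above 0.05 each.

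**Figure D3:**
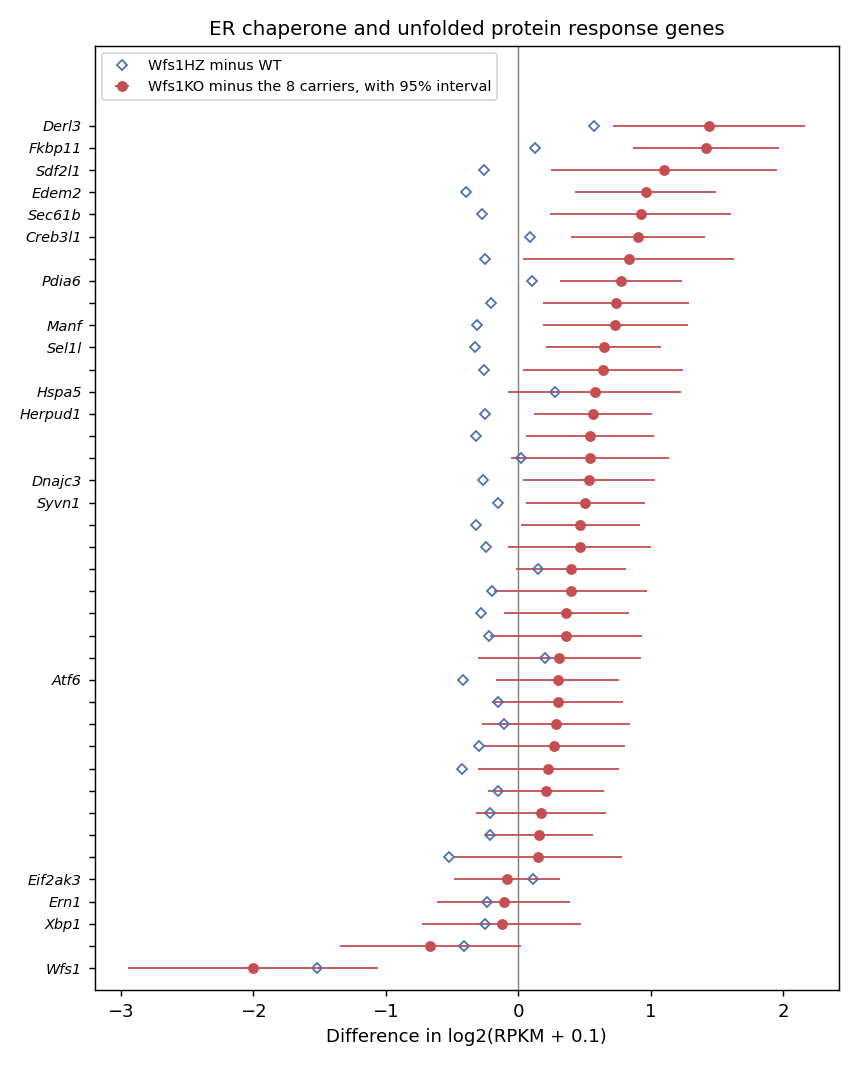
Difference in log2(RPKM + 0.1) between Wfs1KO and the 8 carriers for the 39 tested members of the ER chaperone and unfolded protein response list (red points, bars are 95% intervals) and between Wfs1HZ and WT (blue open diamonds). In 34 members the red point is right of 0, the diamonds have a median of -0.24, and names are given for the members described in the text.

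The ER list stood highest in Wfs1KO replicates 1 and 2. Without Wfs1 and centred on the mean of the 12 animals, the list had a mean of 0.578, 0.584, 0.114 and 0.000 in Wfs1KO replicates 1 to 4, and the highest carrier stood at 0.109, so that 3 of the 4 Wfs1KO animals were above all carriers. Without Wfs1KO replicate 1 only 6 members were higher at an unadjusted p under 0.05, without replicate 2 there were 10, and with median-of-ratios scaling 11. The median of the list stayed between 0.32 and 0.55 in all these and the other settings. Acinar cells are rich in several of these proteins, and the acinar factor Bhlha15 was also higher in Wfs1KO islets, with 13.43, 14.44, 9.54 and 5.26 RPKM against 1.81 to 7.45 RPKM (difference 1.24, unadjusted p = 0.0027). The summed acinar markers of Wfs1KO islets, 78100, 68798, 278980 and 8540 RPKM, lay within the carriers' range from 9110 to 307250 RPKM but for replicate 4, and all 13 markers were tested, 1 of them higher (Bhlha15) and 1 lower (Ptf1a). With the acinar markers, Bhlha15 among them, as a covariate 20 list members were higher. The part of acinar RNA in the ER result was not tested.

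Genes of cholesterol synthesis and uptake mostly had higher values in Wfs1KO islets as well. The sterol-regulated factor SREBP2 controls them together, and islets use the pathway for membranes and granules. Of 23 members tested 14 were higher at an unadjusted p under 0.05 and 0 were lower (2.61% and 1.15% over all transcripts), and 22 had a positive difference (7960 of 13357 over all transcripts). The list's median was 0.63 against 0.06 over all transcripts, and between Wfs1HZ and WT it was 0.06. Lss, lanosterol synthase, had 32.87, 40.89, 18.71 and 17.58 RPKM in Wfs1KO islets against a median of 12.7 and a highest value of 17.87 RPKM in the carriers (difference 0.96, standard error 0.24, adjusted p = 0.604 by limma). Hmgcs1, the synthase at the head of the pathway, had 48.14, 40.12, 29.89 and 28.69 RPKM against 17.66 to 31.16 RPKM (difference 0.71). Srebf2, the gene of SREBP2, had 39.26, 30.82, 22.38 and 25.71 RPKM against 13.37 to 25.38 RPKM (difference 0.61). Insig1, which holds SREBP2 in the ER, had a difference of 0.85. None of the 23 had an FDR under 0.2.

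The sterol element TCACNCCAC was found in 142 of 10314 tested genes with a promoter window (1.38%) and in 1 of 15 cholesterol genes with one (6.67%), Hmgcs1. Its stretch (chr13:119690154-119690282, plus strand, GRCm38.p6, element in capitals 137 to 129 bases before the start, RefSeq) is shown as the only member with a match, and no match says only that these letters are not in the window.
Hmgcs1: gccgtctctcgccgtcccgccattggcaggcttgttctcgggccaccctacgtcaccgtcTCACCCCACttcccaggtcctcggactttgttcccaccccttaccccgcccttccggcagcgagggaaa

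**Figure D4:**
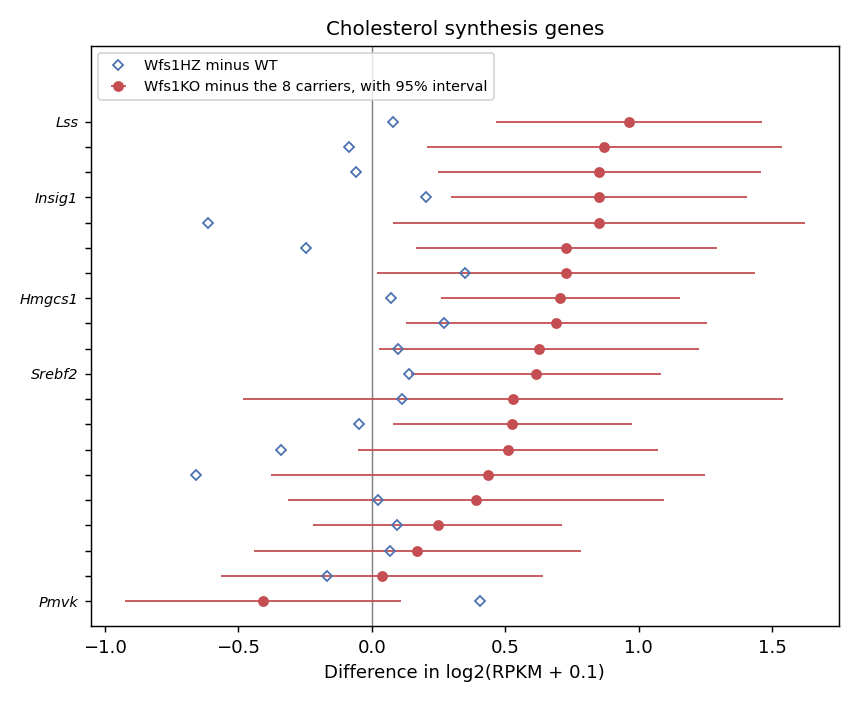
Difference in log2(RPKM + 0.1) between Wfs1KO and the 8 carriers for 20 of the 23 tested cholesterol genes (red points, bars are 95% intervals) and between Wfs1HZ and WT (blue open diamonds). In 19 of these 20 the red point lies right of 0, with Pmvk (-0.41) as the exception, and names are given for the members described in the text.

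As for the ER list, Wfs1KO replicates 1 and 2 stood highest. The centred mean of the cholesterol list was 0.886, 0.609, 0.043 and 0.017 in Wfs1KO replicates 1 to 4, and the highest carrier, WT replicate 1, had 0.282. Without Wfs1KO replicate 1, 4 members were higher at an unadjusted p under 0.05, and without replicate 2 there were 7. Without replicate 3 or 4 the number was 14 and 13.

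Genes of the integrated stress response differed little. Of 35 members tested 2 were higher at an unadjusted p under 0.05, Bcat1 and Slc7a3, a carrier of cationic amino acids with a difference of 0.89, and 0 were lower (2.61% and 1.15% over all transcripts). A positive difference was seen in 30 of the 35 (7960 of 13357 over all transcripts), with a median of 0.16. Without Wfs1KO replicate 1, 1 member was higher. The best known targets were near the carriers, with differences of 0.16 for Atf4, 0.25 for Ddit3, 0.24 for Trib3, 0.21 for Chac1 and 0.20 for Asns. Ddit3, the factor CHOP of the terminal stress response, had 121.76, 70.03, 56.41 and 96.12 RPKM in Wfs1KO islets against 47.5 to 95.9 RPKM in the carriers.

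Several immediate early genes were higher too, with differences of like size between Wfs1HZ and WT. Of 35 members tested 6 were higher at an unadjusted p under 0.05 (Egr1, Egr2, Fosl1, Gadd45b, Myc and Zfp36) and 1, Npas4, was lower (2.61% and 1.15% over all transcripts). The median difference was 0.31, whereas the median between Wfs1HZ and WT was 0.41. The number of higher members was 2 and 3 without Wfs1KO replicates 1 and 3, 11 without Wfs1KO replicate 4 and 10 without Wfs1HZ replicate 2. For Egr1, a transcription factor induced within minutes of a stimulus, WT animals had 40.68 to 97.77 RPKM, Wfs1HZ animals 65.81 to 243.22 RPKM and Wfs1KO animals 133.31 to 222.36 RPKM. Its differences were 0.86 against the carriers and 0.93 between Wfs1HZ and WT (interval from 0.16 to 1.71). Glipr2, a protein of Golgi membranes, had the same shape at a larger size, with 0.6 to 2.46 RPKM in WT, 3.28 to 8.29 in Wfs1HZ and 5.38 to 20.99 in Wfs1KO islets, and a difference of 1.52 between Wfs1HZ and WT (interval from 0.50 to 2.55).

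Chemokine and inflammation genes divided the Wfs1KO animals. Of 45 members tested 3 were higher at an unadjusted p under 0.05, Csf3, Cxcl9 and Nos2 (2.61% over all transcripts), and 0 were lower. A positive difference was found in 40 (7960 of 13357 over all transcripts), with a median of 0.50. The centred list mean was 1.049, 0.992 and 1.179 in Wfs1KO replicates 1 to 3, above the highest carrier at 0.322, and -1.694 in replicate 4, below every carrier. Cxcl9, a chemokine induced by interferon, had 15.42, 7.44, 10.46 and 0.62 RPKM in Wfs1KO islets and 0.12 to 2.29 RPKM in the carriers (difference 2.83, standard error 0.74, adjusted p = 0.618 by limma). Csf3, the growth factor of granulocytes, had 36.21, 27.52, 55.02 and 12.18 RPKM against 3.92 to 16.65 RPKM (difference 1.84, standard error 0.40, adjusted p = 0.299). Without Wfs1KO replicate 4, 32 of the 45 were higher and the median was 1.21. Without Wfs1KO replicate 1, 2 or 3 there were 2 each, with medians of 0.28, 0.25 and 0.23, and without Wfs1HZ replicate 2 there were 5. The 8 listed macrophage markers, 5 of them with a mean of at least 1 RPKM, summed to 144.28, 101.27, 125.57 and 42.76 RPKM in Wfs1KO replicates 1 to 4 and to 60.8 to 203.67 RPKM in the carriers, and their part in the result was not tested.

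**Figure D5:**
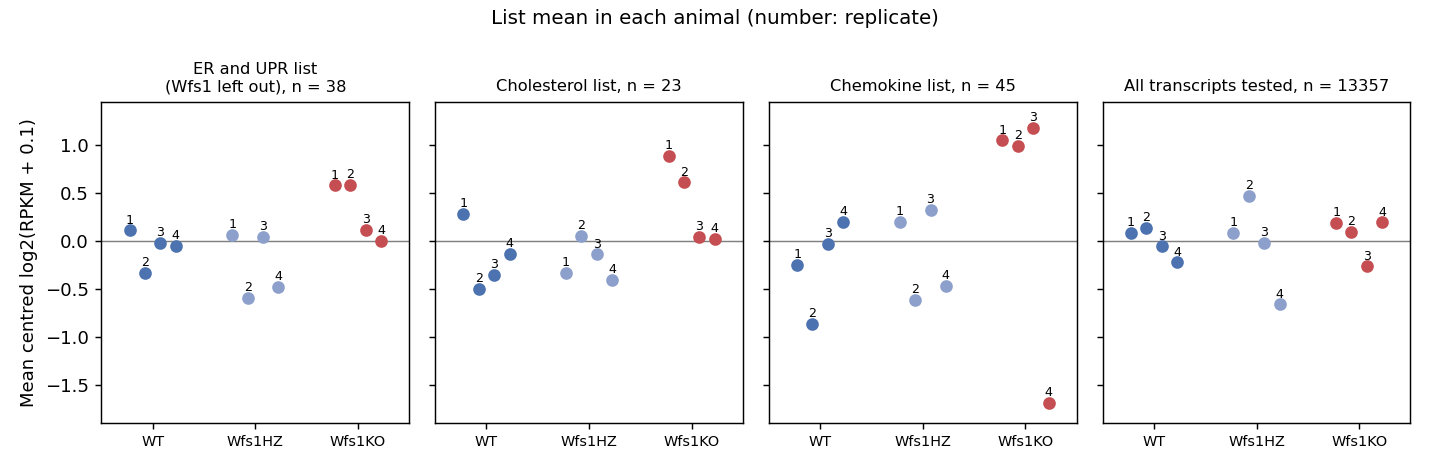
Mean of log2(RPKM + 0.1), centred for each gene on its mean over the 12 animals, for 3 gene lists and for all 13357 transcripts tested. Each point is 1 animal with its replicate number, by genotype. Wfs1KO replicates 1 and 2 lead the ER and cholesterol lists, replicate 4 lies at -1.694 on the chemokine list, and no Wfs1KO animal exceeds all carriers over all transcripts.

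A list of injury, dedifferentiation and regeneration genes, which holds several genes that the study picked from these libraries, had 10 of 41 tested members higher at an unadjusted p under 0.05 and 1 lower (2.61% and 1.15% over all transcripts), with a median of 0.42. Serpina7, Sprr1a, Cck, Aldh1a3, Lgals3, Cd44, Plaur, Glipr2, Apoe and Itgb3 were the higher members and Krt8 the lower. The count is not independent evidence of a direction, because of that choice. The number of lower members ran from 0 (without Wfs1KO replicate 2 or 4) to 5 (without Wfs1KO replicate 3). Sprr1a, a stress protein of epithelia, had 311.32, 376.69, 225.65 and 41.61 RPKM in Wfs1KO islets against 14.89 to 65.82 RPKM in the carriers, so replicate 4 lay among the carriers and the other Wfs1KO animals far above (difference 2.15, standard error 0.48, adjusted p = 0.358). Aldh1a3, known as a marker of dedifferentiated beta cells, had 4.94, 5.14, 2.76 and 5.86 RPKM against 0.75 to 3.7 RPKM (difference 1.48). Cck, the hormone cholecystokinin, had 10.13 to 23.29 RPKM against 0 to 10.45 RPKM (difference 2.43, unadjusted p = 0.012). The summed stromal markers, 72.66, 88.89, 74.42 and 176.16 RPKM in Wfs1KO replicates 1 to 4, were above 7 of the 8 carriers (15.9 to 68.15 RPKM) and below Wfs1HZ replicate 2 (445.33 RPKM). Of the 9 stromal markers 8 had a positive difference (7960 of 13357 over all transcripts), with a median of 0.83 and 0 past an unadjusted p of 0.05. The part of the stromal markers in the injury and chemokine results was not tested. The REG genes, a family of secreted lectins induced by injury, had negative differences with wide errors and none passed the test, as in Reg3b with 441.7, 45.99, 1271.2 and 4.0 RPKM in Wfs1KO islets.

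Several genes of beta cell identity were lower. Of 29 tested, 0 were higher and 5 were lower at an unadjusted p under 0.05 (Trpm5, Slc30a8, Slc2a2 and Gipr among them), and 20 had a negative difference, with a median of -0.29. Over all transcripts 1.15% were lower at this p, 5397 of 13357 had a negative difference and the median was 0.06. Between Wfs1HZ and WT the median was -0.32. The centred mean of the list was -0.042, -0.059, -0.838 and -0.046 in Wfs1KO replicates 1 to 4 and ran from -0.427 to 0.57 in the carriers, so replicate 3, with the highest acinar sum of the Wfs1KO animals (278980 RPKM), stood apart. Without it the median was -0.13, with 3 members lower and 1 higher, and without Wfs1HZ replicate 2 there were 9 lower. Slc30a8, the zinc transporter of insulin granules, had 13.33, 17.31, 16.44 and 53.89 RPKM in Wfs1KO islets against 33.78 to 133.95 RPKM in the carriers (difference -1.46, standard error 0.37, adjusted p = 0.618). Replicate 4 alone lay within the carriers. Slc2a2, the glucose transporter GLUT2, had 3.03, 4.34, 2.5 and 4.11 RPKM against 3.37 to 15.63 RPKM, so replicates 2 and 4 lay within the carriers (difference -1.12, adjusted p = 0.888), and the incretin receptor gene Gipr had 0.41 to 1.27 RPKM against 1.27 to 4.38 RPKM (difference -1.21). For Slc30a8 and Slc2a2 the mean of the heterozygote was near that of WT, with differences of -0.10 and 0.18. Both means were raised by Wfs1HZ replicate 3, which stood far above the other Wfs1HZ animals with 133.95 and 15.63 RPKM. Insulin itself could not be told from the spread: Ins2 had 33525, 24433, 14220 and 9199 RPKM in Wfs1KO islets against 6422.8 to 76687 RPKM in the carriers (difference -0.81, standard error 0.86), and Ins1 had a difference of -0.24 (standard error 0.92) whose sign changed with the processing. The summed beta cell markers were 22394 to 91427 RPKM in Wfs1KO and 12565 to 179870 RPKM in carrier islets (mean log2 level by exact permutation, two-sided, p = 0.267), and their part in these results was not tested.

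Around these, the lists of secretion and of neural signalling held few members past an unadjusted p of 0.05, which 1.15% of all transcripts passed as lower. Of 18 tested genes of GABA and monoamine handling 2 were lower, Gad1 and Maob. Maob, which breaks down monoamines, was lower in Wfs1HZ than in WT as well, by -0.88 (interval from -1.66 to -0.09), whereas the like difference of Gad1 was -0.12. Of 19 synaptic adhesion genes 3 were lower, Spock1 and Cntnap2 among them, with a list median of -0.12. Of 33 genes of excitability and exocytosis 2 were lower, Trpm5 and the vesicle fusion gene Stx1a (difference -0.85), and of 17 genes of prohormone processing and granules 1 was lower, Slc30a8. Without Wfs1HZ replicate 4 the numbers lower were 4 for GABA and monoamines, 5 for synaptic adhesion and 4 for excitability, where leaving out Wfs1KO replicate 4 also gave 4. The study named Gad1, Maob, Trpm5 and Spock1 from these same libraries, and Trpm5 and Slc30a8 are also in the beta cell list. The counts of these lists are thus not independent evidence of a direction.

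Other lists gave no or few differences. Of 17 genes of ER and store-operated calcium, 28 antioxidant genes and 17 cell cycle genes, 0 were higher or lower at an unadjusted p under 0.05. Of 24 cell death genes Bax was higher (difference 0.57), which gave 0 without WT replicate 3 or 4 or Wfs1KO replicate 1, and of 30 genes of glycolysis and the citrate cycle Pfkfb3 was higher (0.82) and Fh1 lower (-0.61). Of 18 genes that beta cells normally keep silent Lmo4 (0.86) and Smad3 (0.63) were higher, and Lmo4 was higher in Wfs1HZ than in WT by 1.18. These counts of 1 or 2 came to 0 in each of the last 2 lists when Wfs1KO replicate 1, 2 or 3 was left out for the higher members, and without Wfs1KO replicate 4 they came to 4 for glycolysis and 6 for the silenced genes. Fh1 was not past this p without Wfs1KO replicate 3. No marker list of a cell type passed a test between Wfs1KO and the carriers: the p of the mean log2 level by exact permutation was lowest for macrophages, 0.0929, and 0.263 or higher for beta, alpha, delta, PP, acinar, ductal, endothelial, stromal, lymphocyte and Schwann cells. For macrophages the mean over all 8 listed markers differed by 0.39. The 5 of them with a mean of at least 1 RPKM had a median difference of -0.02, and 4 of the 5 were negative.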

How the data were processed

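RNA of pancreatic islets from 12 mice, 4 of each genotype, was sequenced by the authors from cDNA of 10 ng of total RNA on a SOLiD instrument, and reads were mapped with LifeScope to mm10, the build that the submitters' processing notes name. The authors deposited RPKM for each animal, rounded to 2 decimals; the counting tool and annotation are not given in the sources used here, and the study's edgeR test on counts was not repeated. GENCODE M21 held the names of 23481 entries (97.5%). Repeated names (58) and entries marked as duplicates (969) stayed apart, and how reads were split among copies is unknown.

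Values were used as log2(RPKM + 0.1) without further scaling for the 13357 entries with a mean of at least 1 RPKM. limma 3.58.1 (R 4.3.3, variance trend, Benjamini-Hochberg adjustment over all entries tested) compared 4 Wfs1KO with 8 carriers in a fit with 2 groups; Wfs1HZ against WT and the departure of Wfs1HZ from the midpoint came from a fit with 3 groups. The FDR was judged at 0.05 and, more loosely, at 0.2. Exact two-sided permutation tests used the mean log2 value and cannot go below 0.00404 with 4 against 8 animals. The rest ran in Python 3.11.15 with scipy 1.17.1, pandas 2.3.3, matplotlib 3.10.9 and numpy 2.4.6. The fits were also run on simulated data with known changes in Wfs1KO. Genes were drawn independently there, without differences in tissue makeup between libraries, so the simulation does not cover such differences.

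Depth was estimated from RPKM steps of genes under 200 nt, of whose low values 71.3% to 82.9% per sample came out whole within 0.1 reads. Intervals and read numbers cover counting error or the spread between animals only. Named were Wfs1, transcripts with an FDR under 0.05, up to 20 in each direction outside all carriers by p, and list members with an unadjusted p under 0.05 or a role described. The comparison, lists and members were chosen with earlier results of these data known. Several lists hold genes that the study named from these libraries, so their counts are not independent evidence. Each list is described by counts and median, with no test. Some genes within these counts are not reported here by name. Promoter windows are from RefSeq (GRCm38.p6). Alternatives were pseudocounts of 1 and 0.01, other filters, 2 scalings, variance models, sample weights, an acinar covariate, a replicate block, the exclusion of genes under 200 nt and each animal left out. Replicates are single animals of the labels; litters are not given.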

Additional observations from a re-analysis of the deposited data

Results flagged for a closer look

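In each genotype the 4 values of the genes followed through the alternatives and of the cell type marker sums were searched for a single animal far from the others (Dixon's ratio above its 95% critical value). Of 144 groups of 4 examined 16 stood out, where chance gives about 1 in 20 for independent values with a normal spread. RPKM and its sums were used here without a log, and groups overlap, as Gcg and the alpha marker sum do. The number is therefore no measure of an excess over chance. In WT islets the animal apart had 65.82 RPKM for Sprr1a (replicate 4) and 20.54 RPKM for Sdf2l1 (replicate 2).

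In Wfs1HZ islets replicate 3 was high in genes of beta cells that were lower in Wfs1KO, with 11.12 RPKM for Trpm5, 133.95 RPKM for Slc30a8 and 15.63 RPKM for Slc2a2. Without this animal the difference of Trpm5 between Wfs1KO and carriers was -2.37. Wfs1HZ replicate 1 had 8.42 RPKM for Fam163a. Wfs1HZ replicate 2, the shallowest library, had 7.76 RPKM for Sdf2l1, 17.87 RPKM for Lss and the highest sums of stromal (445.33 RPKM), lymphocyte (26.0 RPKM) and Schwann cell markers (11.11 RPKM).

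In Wfs1KO islets each animal apart was replicate 4. It had 53.89 RPKM for Slc30a8, 15.94 RPKM for Maob, 217170 RPKM for Gcg, a sum of 221080 RPKM for the alpha cell markers, most of it Gcg, and 176.16 RPKM for the stromal markers.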

How the results depend on the processing

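Trpm5, Cpb2 and Gad1 kept their direction in all 26 other settings that could test them; with a minimum mean of 5 RPKM they were not tested. When single animals were left out, the transcripts that set Wfs1KO apart from carriers numbered 0 to 19 at an FDR of 0.05 and 3 to 127 at an FDR of 0.2, those with an unadjusted p under 0.05 119 to 577 higher and 101 to 338 lower, the ER list 6 to 18 and the cholesterol list 4 to 15 higher members, Wfs1HZ against WT 194 to 759 and the departure from the midpoint 249 to 696. The same counts, in the order FDR under 0.05, FDR under 0.2, lower, Wfs1HZ against WT and departure, were 0, 2, 70, 220 and 266 with a minimum mean of 5 RPKM, 1, 1, 399, 720 and 649 with median-of-ratios scaling (ER list 11), 0, 0, 363, 761 and 743 with quantile normalization, 121, 808, 592, 805 and 973 with sample weights (1308 higher) and 6, 16, 321, 708 and 747 with the acinar covariate. Without a filter 231 were lower, and Wfs1HZ against WT and the departure gave 661 and 711, and with a minimum of 0.1 RPKM 616 and 660. Without both Wfs1HZ replicates 2 and 4, chosen after the data were seen, 7 had an FDR under 0.05 and 326 were lower. The cause of these shifts was not tested, apart from the change in the number tested with the filters. Of single genes, Ins1 reversed to 0.078 with quantile normalization and 0.34 with sample weights and ran from -0.61 to 0.20 with each animal left out, reversing without Wfs1KO replicate 4. Gcg reversed to 0.059 with quantile normalization and ran from -0.69 to 0.015, reversing without Wfs1KO replicate 1.

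The replicate numbers did not pair the animals: over 12 same-numbered pairs the correlation of deviations ran from -0.281 to 0.337, 4 were over 0.1, and 3 of 12 samples correlated best with their own number. With the replicate block 3 transcripts had an FDR under 0.05, the same as without it, and 424 were higher and 151 lower.

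The depth limits low genes: 3 reads on 2 kb stand for up to 0.685 RPKM (Wfs1HZ replicate 2), and 4 Wfs1KO animals of uneven makeup limit the rest.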

Other observations

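Of 9439 entries with a mean above 0 but under 1 RPKM, which entered no test, 8 lay above and 6 below all carriers in the 4 Wfs1KO animals. These are smaller shares than the 0.202% above and 0.18% below among the transcripts tested, which were themselves close to chance. Most rested on a few reads. Tlr9, a receptor of unmethylated DNA, had 0.77, 0.32, 0.35 and 0.69 RPKM in Wfs1KO islets and 0 to 0.29 RPKM in the carriers. These values stand for about 6.82 to 25.6 reads in Wfs1KO islets and for at most about 6.89 in the carriers. Tlr9 was chosen after its values were seen.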
